A study of Mus musculus with 19 samples.

Results

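The difference between CnB1 knockout and control mice that had both been kept awake was described across all 14443 genes listed with counts. It was taken from 10 of the 19 RNA sequencing libraries of the series, 5 from CnB1KO_SD6 and 5 from WT_SD6, chosen by the group that each column of the count table names. CnB1KO_SD6 were ABC-CnB1KO mice and WT_SD6 were ABC-Ctrl mice, and mice of both groups went through 6 h of sleep deprivation before the brain was taken. The same 2 genotypes after normal sleep, CnB1KO_S6 (5 libraries) and WT_S6 (4 libraries), served as a second set of libraries. Dissection followed 4 weeks after injection of an AAV, a viral vector, that carries Cre recombinase behind the human synapsin promoter, which is active in neurons. Glia and blood vessel cells in the tissue can therefore keep the gene, and each library mixes cells that lost it with cells that did not. The labels used here state neither age, sex nor strain, nor what ABC stands for. Poly(A) RNA came from locus coeruleus punches of frozen brain slices.

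CnB1 is the regulatory subunit of calcineurin, encoded by Ppp3r1. Calcineurin is a phosphatase switched on by calcium and calmodulin: a catalytic subunit (Ppp3ca, Ppp3cb or Ppp3cc) works only together with the regulatory subunit. Among its substrates are the NFAT transcription factors, whose dephosphorylation lets them enter the nucleus. The locus coeruleus is the brainstem nucleus whose neurons release noradrenaline across the brain and fire most during waking.

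Total counts ran from 5110285 to 6966490 in CnB1KO_SD6 and from 5606129 to 7903253 in WT_SD6. Levels are CPM, counts scaled to a common library size, and fold changes are CnB1KO_SD6 over WT_SD6 from edgeR, where passing means a p under 0.05 after Benjamini-Hochberg adjustment across the whole table. The defining noradrenergic genes Th, Dbh and Slc6a2 were abundant in every library, at 58.8 CPM or more. Library 16 of CnB1KO_SD6 and library 8 of WT_SD6 stood apart from their groups in cell type markers. Library 8 had the lowest mean noradrenergic marker level, 5.45 log2 CPM against 6.138 to 6.86 in the other WT_SD6 libraries. Library 16 had 6.98 log2 CPM over the oligodendrocyte markers, against 7.25 to 7.30 in the other CnB1KO_SD6 libraries. The labels carry no batch, day or litter, so that no within-batch value could be had.

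Few genes passed in the comparison of the genotypes after deprivation, and most of those that did had modest fold changes. Genes that did not pass may still differ. Of the 14443 genes 19 passed (0.132%), 11 higher (0.0762%) and 8 lower (0.0554%) in CnB1KO_SD6. The fold change was under 1.5 in 10 of them and at least 2 in 4, namely Gm28438, Crb1, Wdfy1 and Stc2. For 18 of the 19 no CnB1KO_SD6 value lay within the WT_SD6 range, Tcirg1 being the exception, and this held for 2.05% of all genes. At an unadjusted p under 0.05 there were 2197 genes (15.2%), 1162 higher (8.05%) and 1035 lower (7.17%). The count rested on single libraries: without CnB1KO_SD6 library 16 it was 220 genes, which held all 19, and it was 7 to 12 without each of CnB1KO_SD6 libraries 17, 18 and 19, WT_SD6 libraries 7 and 9, CnB1KO_S6 libraries 12, 13 and 14, and WT_S6 library 3. DESeq2 called 95 genes, and edgeR called 4 from the 10 libraries of deprived mice alone.

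**Figure D1:**
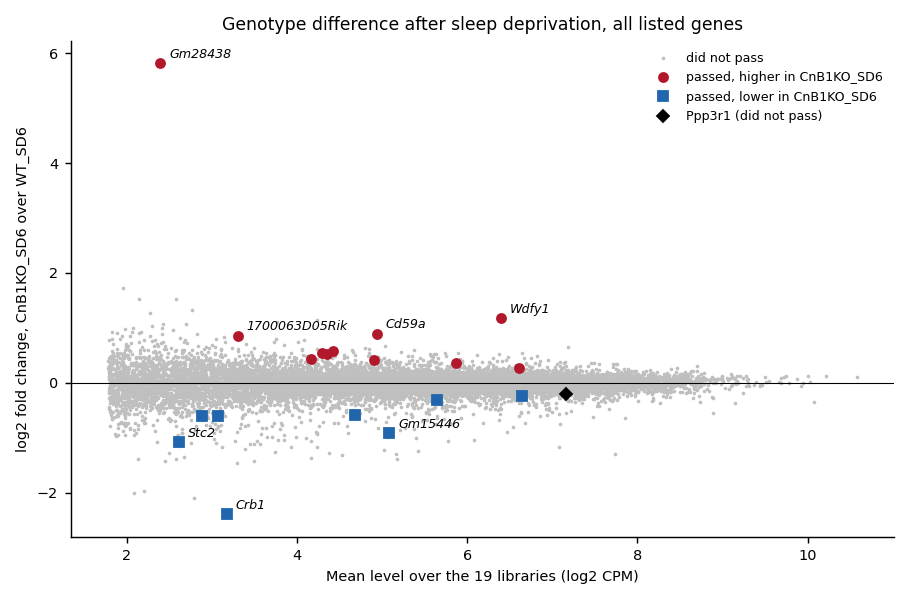
Each point is 1 of the 14443 genes, with its mean level over the 19 libraries (log2 CPM) on the horizontal axis and the log2 fold change of CnB1KO_SD6 over WT_SD6 on the vertical axis. Circles mark the 11 genes that passed as higher, squares the 8 that passed as lower, and the diamond is Ppp3r1 at −0.20, within the cloud of genes that did not pass.

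The targeted gene was examined first, as the check of the genotype labels. Ppp3r1 (chromosome 11, 17159263 to 17200375, plus strand, GRCm38) had 140.7, 123.2, 131.4, 130.2 and 137.0 CPM in CnB1KO_SD6, against 158.5, 149.6, 150.9, 165.3 and 136.2 CPM in WT_SD6. The groups overlapped: 3 of 5 CnB1KO_SD6 libraries lay below all 5 WT_SD6 libraries, and WT_SD6 library 10 lay among the CnB1KO_SD6 ones. By FPKM 4 of 5 lay below all WT_SD6 libraries. After sleep all 5 CnB1KO_S6 libraries, at 120.4 to 152.3 CPM, lay below the WT_S6 ones, at 155.1 to 164.3 CPM (log2 fold change −0.32, adjusted p = 0.104). The log2 fold change was −0.20 ± 0.06 (SE), and it did not pass over all genes (adjusted p = 0.177). It passed with the log2 library total as a covariate (log2 fold change −0.25, adjusted p = 0.0033). As a single gene, the difference of means of −19.6 CPM had an exact 2-sided permutation p of 0.0238 over the 252 splits of 5 against 5, of which the smallest possible is 0.0079. Ppp3r1 overlaps Wdr92 on the same strand, so that reads in the shared part cannot be assigned to either gene with certainty. In bulk tissue, fewer cells of a type and less RNA per cell cannot be told apart, and a knockout in neurons alone leaves the message of other cells in place.

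The catalytic subunits did not pass in either direction. Ppp3ca, the main catalytic isoform of brain, averaged 275.8 ± 13.3 CPM in CnB1KO_SD6 and 284.0 ± 33.6 CPM in WT_SD6 (SD, n = 5 each; log2 fold change −0.04 ± 0.08, SE). Ppp3cb averaged 212.2 ± 5.3 CPM in CnB1KO_SD6 and 206.6 ± 12.2 CPM in WT_SD6 (log2 fold change 0.04 ± 0.05, SE). Ppp3cc averaged 27.2 ± 1.3 CPM in CnB1KO_SD6 and 30.2 ± 2.4 CPM in WT_SD6 (log2 fold change −0.15 ± 0.06, SE, adjusted p = 0.266). The genotype difference of Ppp3cc had the opposite sign after sleep, where the log2 fold change was 0.16.

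The gene with the largest fold change was Gm28438, an unprocessed pseudogene of chromosome 1 (24612775 to 24613119, minus strand, GRCm38). It had 52, 64, 78, 45 and 49 counts in CnB1KO_SD6, against 0, 1, 2, 0 and 2 counts in WT_SD6. All CnB1KO_SD6 libraries were far above all WT_SD6 libraries. Summed over libraries and divided by the totals, 288 against 5 counts make a ratio of 63.9 (95% exact interval 27.1 to 198.2, which covers counting error only). The fitted log2 fold change was 5.82 ± 0.34 (SE, adjusted p = 9.28e-09). The same split was present in the libraries after sleep, with 62, 65, 42, 71 and 56 counts in CnB1KO_S6 against 1, 1, 0 and 3 counts in WT_S6.

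Gm28438 is a nuclear copy of the mitochondrial gene mt-Nd3, which encodes a subunit of respiratory complex I. In the GENCODE M21 transcripts of GRCm38, 344 of its 345 bases match mt-Nd3 (99.7%), and 99.0% of its stretches of 50 bases also occur in mt-Nd3. The only difference within the 345 bases is T3C, counted from the first base of mt-Nd3, with the base of mt-Nd3 given first and that of Gm28438 last. Beyond them mt-Nd3 has 3 more bases at its end. The starts of both transcripts are shown because the base of T3C, in capitals, is all that separates them in the aligned part. They run 5′ to 3′, from chr1:24613057-24613119 (minus strand) and chrM:9459-9521 (plus strand).
Gm28438: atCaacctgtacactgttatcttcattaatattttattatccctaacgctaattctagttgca
mt-Nd3: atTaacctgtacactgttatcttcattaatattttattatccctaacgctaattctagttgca

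On the mitochondrial genome the differing base lies at position 9461, the third of mt-Nd3, and mt-Tg, a transfer RNA gene, ends just before mt-Nd3 at 9458. As background, the C57BL/6J and C57BL/6N substrains of mice are known to differ at this mitochondrial base. The authors' FPKM (fragment counts scaled by gene length and library size), a second deposited measure of the same libraries, did not show the split. By FPKM Gm28438 was at 1035, 1335, 1669, 1124 and 905.8 in CnB1KO_SD6, against 1325, 1175, 1494, 1097 and 1464 in WT_SD6 (log2 fold change −0.13 ± 0.14, SE, adjusted p = 0.689). mt-Nd3, which has no counts, averaged 1195 ± 289 FPKM in CnB1KO_SD6 and 1317 ± 162 FPKM in WT_SD6 (SD, n = 5 each, adjusted p = 0.609). A gene with such a copy can gain or lose reads by how the authors' counting treats reads that fit both places, and the labels do not state how they were treated.

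The transfer RNA genes on either side of mt-Nd3 were lower in CnB1KO_SD6 by FPKM. mt-Tg had 17.8, 13.5, 30.0, 12.1 and 12.98 FPKM in CnB1KO_SD6, against 52.3, 50.1, 77.5, 50.1 and 59.95 FPKM in WT_SD6. mt-Tr, which begins at position 9808, just after mt-Nd3, had 21.8 to 30.8 FPKM in CnB1KO_SD6, against 39.2 to 56.8 FPKM in WT_SD6. Neither overlapped between the groups, and both passed over the 17362 symbols tested by FPKM with limma (log2(FPKM + 0.5) fold changes of −1.78 and −0.85, adjusted p = 1.55e-04 and 5.59e-04). No other mitochondrial transfer RNA gene passed by FPKM. After sleep mt-Tg was at 13.1 to 20.2 FPKM in CnB1KO_S6, against 53.7 to 63.4 FPKM in WT_S6. Whether reads of mt-Tg and mt-Tr also fit the nuclear sequence around Gm28438 was not examined. Their FPKM may therefore also depend on how reads that fit both places were treated. The mitochondrial protein genes with counts, 7 of 13, had no passing member, and their median log2 fold change of 0.12 stood beside 0.01 over all genes.

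**Figure D2:**
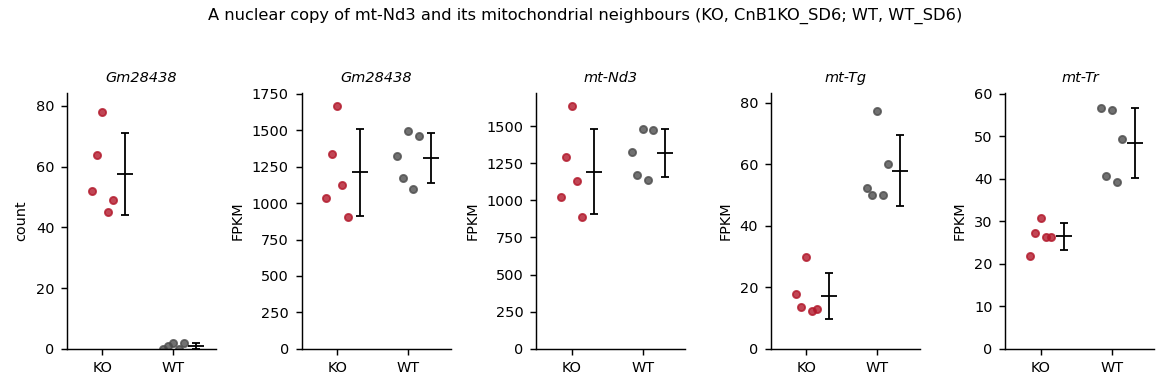
Counts of Gm28438 (first panel) and FPKM of Gm28438, mt-Nd3, mt-Tg and mt-Tr (other panels) in each library, with mean and SD beside the points, CnB1KO_SD6 (KO) left of WT_SD6 (WT). Gm28438 separates the genotypes by counts, 45 to 78 against 0 to 2, and overlaps by FPKM, while mt-Tg and mt-Tr are lower in every CnB1KO_SD6 library.

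Crb1, Wdfy1 and Cd59a, which passed, are on a list of genes with known inherited differences between laboratory mouse strains. It was the only list of the 41 with a passing member, and 3 of its 11 measured members passed, against 0.132% of all genes. The list was put together with earlier results of these data known. Crb1 (chromosome 1) encodes an apical cell polarity protein best known from the retina, and C57BL/6N mice carry a frameshift in it, known as rd8. It had 2.29, 3.01, 1.74, 3.37 and 3.19 CPM in CnB1KO_SD6, against 14.6, 17.7, 7.16, 13.1 and 18.2 CPM in WT_SD6. It was lower in every CnB1KO_SD6 library, 5.25-fold, with a log2 fold change of −2.39 ± 0.23 (SE, adjusted p = 2.85e-05).

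Wdfy1 (chromosome 1) encodes a protein of early endosomes with WD repeats and a FYVE domain. Its levels were 125.1, 118.3, 111.7, 112.8 and 122.4 CPM in CnB1KO_SD6, against 42.2, 47.5, 40.2, 40.7 and 88.2 CPM in WT_SD6. WT_SD6 library 10 stood between its own group and the knockouts. The log2 fold change was 1.18 ± 0.15 (SE, adjusted p = 0.001), and 1.46 without that library. Since library 10 stood apart by its own Wdfy1 value, the larger change without it follows from leaving it out. Wdfy1 overlaps Mrpl44 on the other strand, and the libraries carry no strand information. Mrpl44 itself had a log2 fold change of −0.02.

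Cd59a (chromosome 2) encodes a membrane-anchored inhibitor of the complement attack complex. It was at 34.0, 42.8, 41.2, 43.5 and 42.0 CPM in CnB1KO_SD6, against 24.7, 17.9, 18.4, 17.6 and 30.4 CPM in WT_SD6 (log2 fold change 0.89 ± 0.15, SE, adjusted p = 0.0158). The lowest CnB1KO_SD6 value was that of library 16, and the highest WT_SD6 value again that of library 10. Gabra2, a GABA-A receptor subunit gene for which C57BL/6J is known to carry a deletion that lowers its expression, belongs to the same list and did not pass (adjusted p = 0.0945). It was at 114.4 to 129.8 CPM in CnB1KO_SD6 and 72.6 to 92.8 CPM in WT_SD6, with no overlap. Since the labels state no strain for either genotype, the part of strain in these differences was not tested.

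A block of neighbouring genes near the end of chromosome 2 leaned to higher levels in CnB1KO_SD6. It holds 13 listed genes between 176708328 and 178078476, from Gm14305 to Zfp931, and several are named as zinc finger proteins (Zfp970, Zfp971, Zfp931). The start of the block was set at the passing gene Gm14305 after its values were seen. The counts given for the block include that gene, so that they only describe it. The next listed genes before the block, Gm14443 and Gm14399, had log2 fold changes of −0.33 and −0.01. Phactr3, the next listed gene after the block, had 0.02. All 13 log2 fold changes of the block were positive, from 0.07 to 0.74, 9 of them at an unadjusted p under 0.05 (8.05% of all genes), and 2 passed. Gm14305 had 23.4, 23.6, 23.3, 26.6 and 22.3 CPM in CnB1KO_SD6, against 16.7, 17.4, 14.8, 15.6 and 17.7 CPM in WT_SD6 (log2 fold change 0.53 ± 0.09, SE, adjusted p = 0.0138). Gm14295, 0.09 Mb away, had 18.1, 22.8, 21.7, 21.0 and 21.7 CPM in CnB1KO_SD6, against 14.9, 15.8, 16.8, 14 and 16.6 CPM in WT_SD6 (log2 fold change 0.43 ± 0.08, SE, adjusted p = 0.0414). Neither overlapped between the groups. Their counts are uncertain, because 88.9% of the 50-base stretches of Gm14305 and 74.8% of those of Gm14295 also occur in transcripts of other genes. Gm14305 also overlaps Zfp973 on the same strand. Shared stretches were not examined for the other members of the block, whose counts may be uncertain in the same way. After sleep 10 of the 13 log2 fold changes were positive, 5 at an unadjusted p under 0.05 (6.25% of all genes).

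The promoters of the passing pair are shown because the members of the block share sequence there. RefSeq (GRCm38.p6) gives a start site for 10 of the 13 genes. Of the 250 bases before it, a run of 40 bases was common to all 10, and the run of 54 bases in capitals to 9. The 40-base run occurred in the same window of 27 of 27025 genes with a promoter entry (0.1%), and the 17 outside the block were not among the listed genes. The capitals contain the motif CCAAT, so that its presence in the 9 promoters with that run was fixed by the shared sequence. On either strand it was in all 10 promoters of the block and in 37.5% of all promoters. That is a description only, since the 10 share sequence and are not independent. Gm14305 is shown from chr2:176708103-176708352 and Gm14295 from chr2:176798350-176798599, both on the plus strand and 5′ to 3′.
Gm14305: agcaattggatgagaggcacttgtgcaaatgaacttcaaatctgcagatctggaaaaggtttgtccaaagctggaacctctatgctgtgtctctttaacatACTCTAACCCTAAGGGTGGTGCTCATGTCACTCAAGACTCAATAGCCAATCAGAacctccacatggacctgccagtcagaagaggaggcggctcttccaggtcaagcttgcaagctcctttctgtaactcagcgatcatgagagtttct
Gm14295: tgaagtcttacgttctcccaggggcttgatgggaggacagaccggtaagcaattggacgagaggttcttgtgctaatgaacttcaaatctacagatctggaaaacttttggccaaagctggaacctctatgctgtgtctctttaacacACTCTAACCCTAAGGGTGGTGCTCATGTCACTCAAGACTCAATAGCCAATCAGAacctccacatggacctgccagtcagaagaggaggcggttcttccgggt

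Gm15446 (chromosome 5), annotated as protein-coding in GENCODE, was the third gene by p-value. It had 21.6, 20.9, 20.3, 19.5 and 21.1 CPM in CnB1KO_SD6, against 32.8, 39.6, 43.9, 42.2 and 37.9 CPM in WT_SD6. All CnB1KO_SD6 libraries lay together below all WT_SD6 libraries (log2 fold change −0.92 ± 0.10, SE, adjusted p = 8.45e-05). After sleep the level of 25.6 CPM in CnB1KO_S6 library 11 was low, and the other 4 CnB1KO_S6 libraries had 35.4 to 39.8 CPM, against 39.1 to 41.1 CPM in WT_S6. Of its 50-base stretches 32.7% also occur in other genes, most often Zfp932, which had a log2 fold change of −0.14 after deprivation. Gm28438, Crb1 and Gm15446 passed in each of the 30 alternatives run on the counts.

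The other genes that rose encode proteins of several kinds. Cdh22, a cadherin of cell adhesion, rose to 107.2 ± 4.5 CPM in CnB1KO_SD6, against 88.6 ± 2.5 CPM in WT_SD6 (SD, n = 5 each; adjusted p = 0.0022), a log2 fold change of 0.27 ± 0.04 (SE). Cpne9, a calcium-dependent phospholipid-binding copine, had 56.6 to 69.3 CPM in CnB1KO_SD6 and 44.0 to 52.0 CPM in WT_SD6 (adjusted p = 0.0121). Tcirg1, a subunit of the proton pump of lysosomes and osteoclasts, averaged 33.7 ± 3.7 CPM in CnB1KO_SD6 and 25.2 ± 2.6 CPM in WT_SD6 (adjusted p = 0.0375), with WT_SD6 library 10 at 29.8 CPM inside the range of the knockouts.

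Aif1l, an actin-binding protein with EF hands, had 20.7 to 26.5 CPM in CnB1KO_SD6 and 13.1 to 17.9 CPM in WT_SD6 (log2 fold change 0.57 ± 0.11, SE, adjusted p = 0.0375). Prob1, on chromosome 18, had 19.9 to 24.7 CPM in CnB1KO_SD6 and 13.8 to 17.6 CPM in WT_SD6 (adjusted p = 0.0397). 1700063D05Rik, a long intergenic noncoding RNA of chromosome 9, had 9.48, 12.3, 15.9, 12.4 and 8.96 CPM in CnB1KO_SD6, against 7.53, 6.36, 7.32, 5.27 and 6.302 CPM in WT_SD6. It was higher in every CnB1KO_SD6 library, with a log2 fold change of 0.85 ± 0.14 (SE, adjusted p = 0.0138). Slc5a11, a sodium-coupled inositol transporter and the next named gene by p-value, did not pass, with 7.74 ± 1.48 CPM in CnB1KO_SD6 and 4.36 ± 0.86 CPM in WT_SD6 (SD, n = 5 each; adjusted p = 0.0609).

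Among the genes that fell, Stc2 encodes stanniocalcin 2, a secreted glycoprotein induced by cellular stress. It had 4.41, 3.44, 3.91, 3.91 and 4.18 CPM in CnB1KO_SD6, against 7.53, 9.04, 10.7, 8.002 and 6.796 CPM in WT_SD6. The groups did not overlap, and the log2 fold change was −1.08 ± 0.14 (SE, adjusted p = 0.0011). Snapc1, a subunit of the complex that starts transcription of small nuclear RNA genes, fell to 88.5 ± 4.2 CPM in CnB1KO_SD6, against 104.3 ± 3.5 CPM in WT_SD6 (SD, n = 5 each; adjusted p = 0.0138). Nmd3, the adaptor that carries large ribosomal subunits out of the nucleus, fell to 44.4 ± 2.0 CPM in CnB1KO_SD6, against 55.2 ± 2.9 CPM in WT_SD6 (adjusted p = 0.0352). Plekhn1, which has pleckstrin homology domains, had 15.3 to 21.5 CPM in CnB1KO_SD6 and 22.2 to 30.7 CPM in WT_SD6 (adjusted p = 0.0375).

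The 2 noncoding RNAs that fell did so by like amounts. 9330118I20Rik had 5.38 to 7.16 CPM in CnB1KO_SD6 and 7.29 to 10.7 CPM in WT_SD6 (log2 fold change −0.60 ± 0.11, SE, adjusted p = 0.0375). The libraries carry no strand information, so that its count is uncertain. 9330133O14Rik had 4.92 to 5.44 CPM in CnB1KO_SD6 and 6.184 to 8.90 CPM in WT_SD6 (log2 fold change −0.61 ± 0.12, SE, adjusted p = 0.0375). The other named genes with lower levels did not pass. These were Ube2f, a conjugating enzyme for the ubiquitin-like protein NEDD8 (log2 fold change −0.23, adjusted p = 0.0511), Espn, an actin-bundling protein (−0.73, adjusted p = 0.0547), and Fam184a (−0.26, adjusted p = 0.0634).

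**Figure D3:**
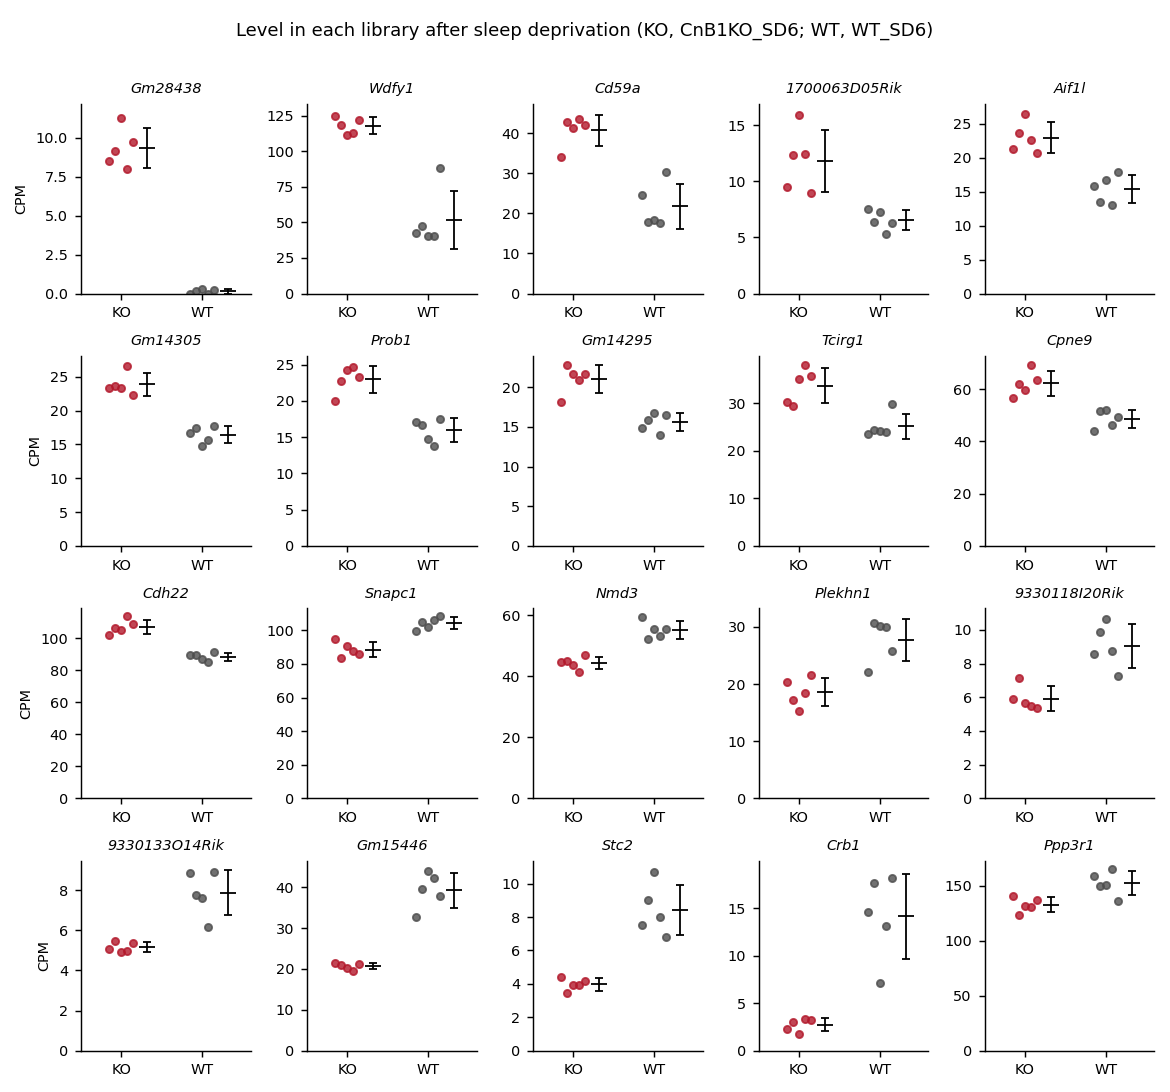
Level in CPM (vertical axis, from 0) of the 19 passing genes and Ppp3r1 in each of the 5 CnB1KO_SD6 (KO, left) and 5 WT_SD6 (WT, right) libraries, with mean and SD beside the points. The groups do not overlap except in Tcirg1 and Ppp3r1, and WT_SD6 library 10 is the high point among the controls for Wdfy1 (88.2 CPM), Cd59a (30.4 CPM) and Tcirg1 (29.8 CPM).

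How firmly single genes passed varied. Gm28438, Crb1, Gm15446, Wdfy1, Stc2 and Cdh22 passed in all 19 fits that each left out 1 library. Cpne9 passed in 18 of the 19, not without WT_SD6 library 9, Gm14305 in 17, 1700063D05Rik and Snapc1 in 16 each, and Cd59a in 14. Aif1l and Nmd3 passed in 8 of the 19, Tcirg1 and Plekhn1 in 6, Prob1 and 9330118I20Rik in 4, and 9330133O14Rik and Gm14295 in 3. The highest adjusted p among these fits was 0.147, and no fold change turned its sign in them.

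The same genotype difference was also taken between the libraries of mice that slept. These share no library with the contrast after deprivation but entered the same fit, so that they also set the spread behind the 19 calls: without CnB1KO_S6 library 12, or without WT_S6 library 3, 8 of the 19 no longer passed. All 19 genes had the same direction in CnB1KO_S6 against WT_S6, as had 72.8% of all genes. At an unadjusted p under 0.05 and in the same direction there were 15 of the 19, against 9.19% of all genes. At an unadjusted p under 0.05 there were 1456 genes after sleep (10.1%). In 13 of the 19 the groups did not overlap after sleep, against 4.32% of all genes. Over all genes 7 passed after sleep (0.0485%), and 4 of them were among the 19: Gm28438, Crb1, Wdfy1 and Snapc1. Crb1 had 2.02 to 2.90 CPM in CnB1KO_S6 and 13.4 to 19.9 CPM in WT_S6 (log2 fold change −2.73, adjusted p = 7.06e-06). Wdfy1 had 111.7 to 118.2 CPM in CnB1KO_S6 and 42.1 to 44.0 CPM in WT_S6 (log2 fold change 1.40, adjusted p = 4.24e-04). Snapc1 had 91.8 to 98.7 CPM in CnB1KO_S6 and 108.6 to 116.6 CPM in WT_S6 (log2 fold change −0.24, adjusted p = 0.0378). Those with an unadjusted p over 0.05 after sleep were Gm15446, 1700063D05Rik, Gm14305 and Prob1.

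Aim2, Meaf6 and Klf2 passed after sleep and not after deprivation. Aim2, a sensor of cytosolic DNA, had a log2 fold change of −0.88 after deprivation and −1.27 after sleep. Klf2, a transcription factor of blood vessel endothelium, had 0.17 after deprivation and 0.78 after sleep, and Meaf6 had −0.12 after deprivation and −0.25 after sleep. Across all 14443 genes the 2 sets of log2 fold changes had a Pearson correlation of 0.58, as a description, since genes are not independent replicates.

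Whether the genotype difference after deprivation differed from that after sleep was tested by an interaction term. No gene passed with edgeR (lowest adjusted p 0.681), 287 genes (1.99%) had an unadjusted p under 0.05, limma voom called none, and DESeq2 called Gm15446. Gm15446 was also called by edgeR without CnB1KO_S6 library 11. That library had the lowest Gm15446 level of CnB1KO_S6, 25.6 CPM, so that this call partly follows from leaving it out. The fold change was larger after deprivation in 16 of the 19 genes and the interaction had an unadjusted p under 0.05 in 6, but the 19 were chosen by the contrast after deprivation, so that these counts only describe them. Prob1 had a log2 fold change of 0.52 after deprivation and 0.00 after sleep, and 1700063D05Rik 0.85 after deprivation and 0.09 after sleep.

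**Figure D4:**
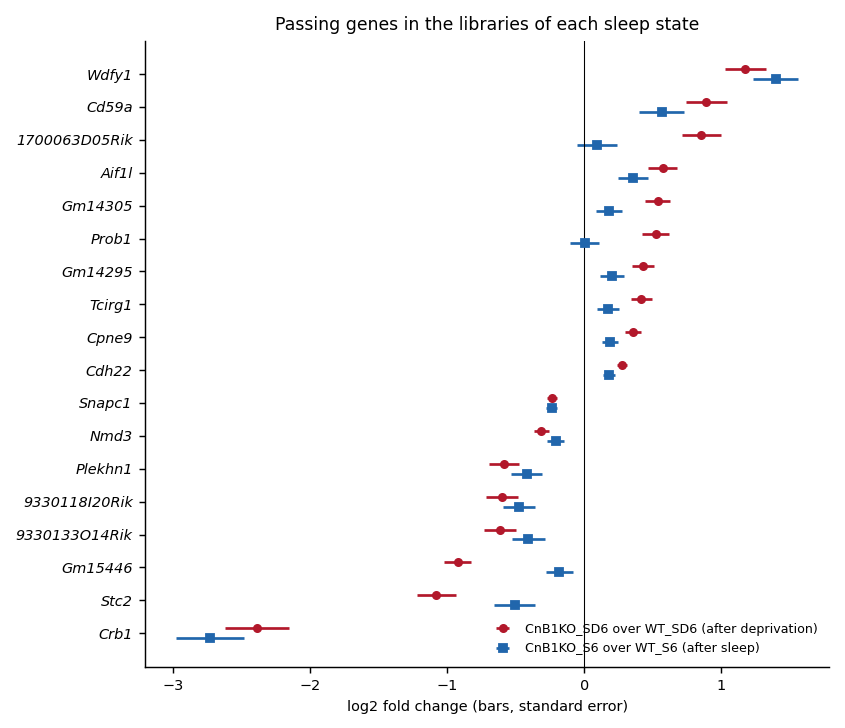
log2 fold change (horizontal axis) with its standard error for 18 of the 19 passing genes, CnB1KO_SD6 over WT_SD6 as circles and CnB1KO_S6 over WT_S6 as squares. Gm28438, at 5.82 after deprivation and 5.55 after sleep, is left out for scale, and every gene lies on the same side of 0 in both, Prob1 at 0.00 after sleep.

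Beyond the subunits, genes of the calcineurin pathway did not pass. Of 11 measured regulators and anchors none passed, with a median log2 fold change of 0.07. Rcan1, an inhibitor of calcineurin that is itself induced by NFAT, averaged 73.3 ± 5.0 CPM in CnB1KO_SD6 and 66.6 ± 5.4 CPM in WT_SD6 (adjusted p = 0.308). Of 16 measured substrates and target factors none passed, with a median of −0.12. Mef2c, a neuronal transcription factor, had a log2 fold change of −0.46 (adjusted p = 0.167), Nfatc2, an NFAT factor, 0.26 (adjusted p = 0.172), and Crtc1, a coactivator of CREB, −0.29 (adjusted p = 0.204). Of 22 kinases and histone deacetylases linked to sleep need none passed, with a median of 0.01. Sik3, whose gain-of-function mutation raises sleep need in mice, averaged 271.0 ± 7.6 CPM in CnB1KO_SD6 and 272.2 ± 10.9 CPM in WT_SD6. Prkar2b, a regulatory subunit of protein kinase A, averaged 78.1 ± 5.2 CPM in CnB1KO_SD6 and 78.3 ± 12.6 CPM in WT_SD6.

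Noradrenergic identity genes did not pass either. None of 9 genes of noradrenaline synthesis and transport passed, with a median log2 fold change of 0.14. Th, the first enzyme of the pathway, averaged 126.4 ± 22.5 CPM in CnB1KO_SD6 and 113.3 ± 34.7 CPM in WT_SD6, and Dbh, which makes noradrenaline from dopamine, 225.9 ± 32.1 CPM in CnB1KO_SD6 and 185.8 ± 43.8 CPM in WT_SD6. Slc6a2, the noradrenaline transporter, averaged 447.8 ± 70.7 CPM in CnB1KO_SD6 and 360.0 ± 109.3 CPM in WT_SD6, and the neuropeptide gene Gal 34.5 ± 6.5 CPM in CnB1KO_SD6 and 30.9 ± 10.3 CPM in WT_SD6. Their adjusted p ran from 0.429 to 0.768, and without library 8 of WT_SD6 the log2 fold changes of Th and Gal were −0.01 and −0.02. Library 8 had the lowest noradrenergic marker level of WT_SD6, a mean that includes Th and Gal. The values without it therefore partly follow from leaving it out. Potassium channels had no passing member among 28, with 5 higher and 1 lower at an unadjusted p under 0.05 (8.05% and 7.17% of all genes). Of the 28 log2 fold changes 16 were negative. Among the higher were the SK channel genes Kcnn1 (log2 fold change 0.47, adjusted p = 0.119) and Kcnn2 (0.28, adjusted p = 0.157), and Hcn2 (0.26, adjusted p = 0.189). Without library 16 Kcnn1 and Kcnn2 passed (adjusted p = 0.0138 and 0.0489). In that fit 5 of the 28 were higher and 5 lower at an unadjusted p under 0.05, against 1560 and 1616 of all 14443 genes. The voltage-gated sodium and calcium channels had none among 23, with 5 lower and 2 higher at an unadjusted p under 0.05 (7.17% and 8.05% of all genes).

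Immediate early genes, which neuronal activity induces, had no passing member among 18, with 2 higher and 5 lower at an unadjusted p under 0.05 (8.05% and 7.17% of all genes) and a median log2 fold change of −0.26. Bdnf, a neurotrophin, had 30.6, 28.6, 25.8, 25.8 and 29.3 CPM in CnB1KO_SD6, against 41.5, 36.5, 35.0, 43.1 and 35.7 CPM in WT_SD6. It was lower in every CnB1KO_SD6 library and did not pass (log2 fold change −0.45 ± 0.10, SE, adjusted p = 0.0766). Arc, which acts in synaptic plasticity, went the other way, with 39.9 to 54.6 CPM in CnB1KO_SD6 and 28.6 to 39.8 CPM in WT_SD6 (log2 fold change 0.49, adjusted p = 0.111). Fos had 37.4, 15.6, 12.2, 11.9 and 11.2 CPM in CnB1KO_SD6, against 23.3, 23.2, 39.5, 35.3 and 20.9 CPM in WT_SD6 (log2 fold change −0.68 ± 0.30, SE, adjusted p = 0.296). Library 16 alone lay within the WT_SD6 range of Fos, and without it the log2 fold change was −1.15 and passed (adjusted p = 0.0262). Since that library stood apart by its own Fos value, the call without it partly follows from leaving it out. Homer1, a postsynaptic scaffold gene, averaged 65.0 ± 9.2 CPM in CnB1KO_SD6 and 80.2 ± 12.1 CPM in WT_SD6 (adjusted p = 0.185, and 0.0493 without library 16). Without it Bdnf, at 0.0376, and Arc, at 0.0401, passed as well.

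Of 19 clock genes none passed. Per1, a core repressor, averaged 94.02 ± 11.8 CPM in CnB1KO_SD6 and 113.6 ± 9.8 CPM in WT_SD6 (adjusted p = 0.157, and 0.0166 without library 16), and Dbp, an output factor, 44.2 ± 3.9 CPM in CnB1KO_SD6 and 42.0 ± 3.1 CPM in WT_SD6. Cirbp, a cold-inducible RNA-binding protein that falls with waking, averaged 48.3 ± 3.5 CPM in CnB1KO_SD6 and 56.0 ± 2.7 CPM in WT_SD6 (adjusted p = 0.183). Among 17 glucocorticoid-responsive genes none passed, and Sgk1, a kinase gene induced by corticosterone, averaged 116.1 ± 26.1 CPM in CnB1KO_SD6 and 110.0 ± 16.1 CPM in WT_SD6. Plin4, a lipid droplet coat protein, varied widely within groups, with 44.1 to 106.7 CPM in CnB1KO_SD6 and 18.4 to 127.8 CPM in WT_SD6. The cytosolic chaperones (18 genes) and those of the endoplasmic reticulum (21 genes) had no passing member, with median log2 fold changes of 0.08 and 0.04.

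No gene of antigen presentation passed. Of 13 measured members all had positive log2 fold changes, 8 at an unadjusted p under 0.05 (8.05% of all genes were higher at that p), with a median of 0.26. Over all genes 7451 of 14443 log2 fold changes were positive. H2-T23, a class I gene, averaged 19.4 CPM in CnB1KO_SD6 and 12.8 CPM in WT_SD6 (adjusted p = 0.119), and Cd74, the invariant chain of class II, 16.97 CPM in CnB1KO_SD6 and 9.85 CPM in WT_SD6 (adjusted p = 0.203). Of 17 interferon-induced genes 4 were higher at that p, with a median of 0.23. Cholesterol synthesis (20 genes) and nuclear oxidative phosphorylation (24 genes) had medians of 0.10 and 0.11, with 0 and 1 genes at an unadjusted p under 0.05.

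No marker of glia or vessels passed. At an unadjusted p under 0.05, 8.05% of all genes were higher. Of 12 oligodendrocyte markers 9 were higher at that p, and their mean level ran from 6.98 to 7.30 log2 CPM in CnB1KO_SD6 and from 6.82 to 7.07 log2 CPM in WT_SD6. Ermn, a cytoskeletal protein of myelinating cells, averaged 140.6 CPM in CnB1KO_SD6 and 104.9 CPM in WT_SD6 (adjusted p = 0.0816), whereas Opalin averaged 21.4 ± 3.9 CPM in CnB1KO_SD6 and 17.8 ± 4.6 CPM in WT_SD6 (adjusted p = 0.385). Of 12 microglial markers 5 were higher at an unadjusted p under 0.05, led by C1qc of the complement system (34.6 CPM in CnB1KO_SD6 and 26.6 CPM in WT_SD6), and the list ran from 4.50 to 4.81 log2 CPM in CnB1KO_SD6 and from 4.21 to 4.62 log2 CPM in WT_SD6. Of 9 endothelial markers 5 were higher at an unadjusted p under 0.05, with the list at 5.91 to 6.23 log2 CPM in CnB1KO_SD6 and 5.68 to 5.97 log2 CPM in WT_SD6. The 11 astrocyte markers had a median log2 fold change of 0.11, with 8 positive, 3 negative and 2 higher at that p.

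Markers of cerebellar granule cells, which lie beside the dissected region, were the most uneven. All 9 had negative log2 fold changes, with a median of −1.05 and none at an unadjusted p under 0.05 (7.17% of all genes were lower at that p). Without CnB1KO_SD6 library 16 the median was −1.82 and 7 of the 9 were lower at an unadjusted p under 0.05, against 11.2% of all genes. Library 16 had the highest level of these markers in CnB1KO_SD6, so that this shift partly follows from leaving it out. The 6 Purkinje cell markers had a median of −0.48 with none at that p, and −0.77 with 4 at that p without library 16. The mean level of the granule cell markers ran from 2.92 to 7.06 log2 CPM in CnB1KO_SD6 and from 3.899 to 7.63 log2 CPM in WT_SD6. These granule cell ranges overlapped in part: CnB1KO_SD6 library 20 lay below all WT_SD6 libraries, and WT_SD6 libraries 8 and 9 above all CnB1KO_SD6 ones. Barhl2, one of the granule cell markers, had 0 to 93 counts in CnB1KO_SD6 and 10 to 222 counts in WT_SD6. The part of the cell make-up in the genotype differences was not tested. With the oligodendrocyte level as a covariate 4 genes passed instead of 19, with the noradrenergic one 15 and with the cerebellar granule one 13. Under the first, Stc2 had a log2 fold change of −1.06 ± 0.19 (SE), against −1.08 ± 0.14 without it, and Gm14305 had 0.56 ± 0.12, against 0.53 ± 0.09. Cd59a had 0.60 ± 0.16 under it, against 0.89 ± 0.15 without it.

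**Figure D5:**
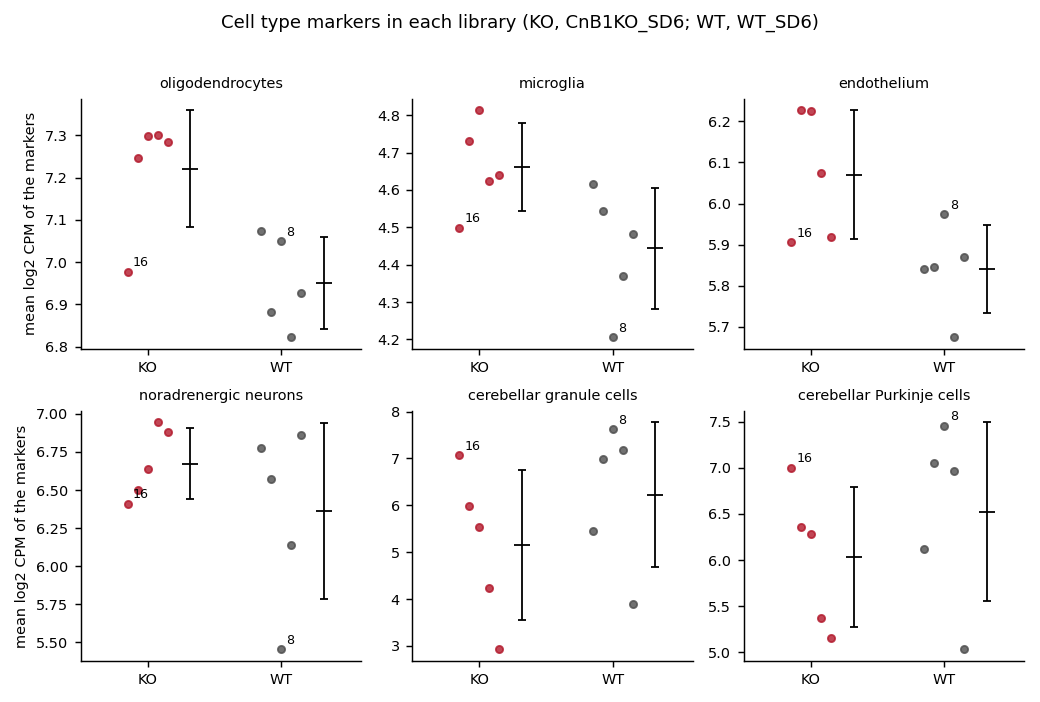
Mean log2 CPM (vertical axis, not from 0) of the markers of 6 cell types in each library, with mean and SD beside the points, CnB1KO_SD6 (KO) left of WT_SD6 (WT). Library 16 lies below the other CnB1KO_SD6 libraries for oligodendrocytes (6.98) and above them for granule cells (7.06), and library 8 is the lowest WT_SD6 library for noradrenergic neurons (5.45).

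Without CnB1KO_SD6 library 16, 220 genes passed (1.52%), 142 higher (0.983%) and 78 lower (0.54%). This library stood apart by its own oligodendrocyte, granule cell and Fos values. Calls of such genes without it therefore partly follow from leaving it out, and they only describe the other libraries. Of the oligodendrocyte markers 4 of 12 then passed as higher (Ermn, Ugt8a, Mag and Aspa), of the microglial ones 2 of 12 (C1qa and C1qc), of the endothelial ones 3 of 9 (Flt1, Cldn5 and Slco1a4), and of the immediate early genes 3 fell and 1 rose. Kcnn1, Kcnn2, H2-T23 and Gabra2 also passed as higher, and Per1 and Per2 as lower. In the same fit the cerebellar granule and Purkinje markers were lower, as given above, with none passing. The 19 genes kept their direction, with log2 fold changes such as −2.34 for Crb1 and 0.95 for Cd59a.

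By FPKM 8 of 17362 symbols passed (0.0461%). Wdfy1, Gm15446, Crb1, Cdh22, Cd59a and Stc2 were common to both measures, and mt-Tg and mt-Tr have no counts. Of the 19 genes 18 had the same direction by FPKM, Gm28438 being the exception. The fold changes are on the log2(FPKM + 0.5) scale, which understates those of low genes: Crb1 fell by 1.48 and Stc2 by 0.79.

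The 18 passing genes with an annotated position lay on 11 chromosomes, with 5 on chromosome 2 and 3 on chromosome 1. Of 9 listed genes within 2 Mb of Ppp3r1 none passed, and their log2 fold changes ran from −0.21 to 0.03. Cnrip1, 0.11 Mb away, was the only one at an unadjusted p under 0.05 (log2 fold change −0.16, adjusted p = 0.193). Apart from Gm14305 and Gm14295 no passing genes lay within 2 Mb of each other.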

How the data were processed

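RNA of locus coeruleus tissue was sequenced from 19 mouse libraries in 4 groups, without strand information per the labels' protocols. The authors deposited raw counts per gene symbol and, in 4 tables, FPKM. Per the submitters' processing notes, StringTie 2.2.1, HTSeq 2.0.4, SAMtools 1.6, Picard 2.18.29, Trim Galore 0.6.10 and FastQC 0.12.1 were used with GRCm38. Aligner, annotation and handling of reads with several matches: not given in the sources used here. Columns were assigned to groups by name, and 19 TPM columns were not used. Listed genes have at least 381 counts over the 19 libraries.

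Counts were scaled by TMM and fitted with edgeR 4.0.16 (R 4.3.3, quasi-likelihood F test, 2-sided) over all 19 libraries in 4 groups (15 residual degrees of freedom, common dispersion 0.0121), adjusted over 14443 genes. filterByExpr removed none. The standard error is the log2 fold change over the square root of F. DESeq2 1.42.0 and limma 3.58.1 were alternatives. FPKM were tested with limma-trend as log2(FPKM + 0.5) for 17362 symbols with 1 line per table and a mean of at least 1. The steps were tested on simulated data. Same-group libraries differed by 1.38 to 19.07 times the sampling noise (chi-square per degree of freedom), and counts limit the precision of genes with few reads.

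The text names the calcineurin subunits, passing genes (mean log2 CPM 1 or more, no provisional symbols, the 12 largest changes a direction, then by smallest p up to 8), up to 4 passing members of each list and a fixed panel of 17 genes. Provisional symbols that passed, and further list members, were named after their values were seen. Members and the 41 lists were chosen with earlier results of these data known. Positions and transcripts are from GENCODE M21 (97.6% of symbols had 1 position), promoters from RefSeq. A withheld item is not reported here.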

Additional observations from a re-analysis of the deposited data

Results flagged for a closer look

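Of 122 groups of library values examined, 11 had a highest or lowest library far from the rest, and chance alone flags about 1 in 20 groups. CnB1KO_SD6 library 16 was set apart for Fos (37.4 CPM, the others 11.2 to 15.6), for Cd59a (34.0 CPM, the others 41.2 to 43.5) and for the mean oligodendrocyte marker level (6.98 log2 CPM, the others 7.25 to 7.30). CnB1KO_SD6 library 17 was the high one for 9330118I20Rik (7.16 CPM, the others 5.38 to 5.88). WT_SD6 library 10 was set apart for Wdfy1 (88.2 CPM, the others 40.2 to 47.5), for Tcirg1 (29.8 CPM, the others 23.5 to 24.3), for the ependymal and choroid plexus markers (4.43 log2 CPM, the others 3.12 to 3.49) and for blood markers (3.25 log2 CPM, the others 3.58 to 3.70). WT_SD6 library 8 was set apart for Prkar2b (56.2 CPM, the others 79.7 to 86.9), for the cholinergic markers (2.90 log2 CPM, the others 5.13 to 5.48) and for the GABAergic and glycinergic markers (7.09 log2 CPM, the others 6.68 to 6.77).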

How the results depend on the processing

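No paired analysis was possible because the columns carry running library numbers and not the replicate numbers of the labels. The 19 genes called after deprivation became 95 with DESeq2, 32 with the log2 library total as covariate, 4 with the oligodendrocyte level as covariate, 4 with the 10 libraries of deprived mice alone, 8 by FPKM, 14 without libraries 8 and 20 (chosen after seeing the data) and 7 to 220 when 1 library was left out. The 7 genes called after sleep became 13 with DESeq2, 4 with limma voom, 19 with the log2 library total as covariate and 3 to 8 when 1 library was left out. The interaction gave 0 genes with edgeR, 1 with DESeq2 and 0 to 1 when 1 library was left out. FPKM, tested for the contrast after deprivation only, gave 8 genes, and 5 to 48 when 1 library was left out. Ppp3r1 passed only with the log2 library total as covariate (log2 fold change −0.25). The cause of these shifts was not tested.

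Sign changes were limited to Gm28438 (−0.13 by FPKM) and to genes with no call, given here as log2 fold changes. With the oligodendrocyte level as covariate Ppp3cb became −0.0116, Th −0.0176, Sgk1 −0.109, Plin4 −0.113, Opalin −0.0366 and Prkar2b 0.0546. With the noradrenergic level Ppp3ca became 0.0139, Th −0.0817, Gal −0.0948, Plin4 −0.225 and Sik3 0.00636. Th and Gal are among the noradrenergic markers, so that their changes here partly follow from the covariate. The same holds for Opalin under the oligodendrocyte level. With the cerebellar granule level Th became −0.0289, Gal −0.0248, Sgk1 −0.00956 and Plin4 −0.189. Without libraries 8 and 20 Th became −0.0760, Gal −0.0779 and Plin4 −0.229. Library 8 had the lowest noradrenergic marker level of WT_SD6, so that the changes of Th and Gal partly follow from leaving it out. Ppp3cb was −0.00844 with the log2 library total as covariate and −0.0249 by FPKM, and Prkar2b 0.00728 with limma voom and 0.0447 by FPKM. When 1 library was left out, Ppp3ca ran from −0.102 to 0.0108, Th from −0.0135 to 0.251, Gal from −0.0198 to 0.277, Sgk1 from −0.0214 to 0.189, Plin4 from −0.177 to 0.412, Sik3 from −0.0304 to 0.00865 and Prkar2b from −0.104 to 0.0337. Genes with few counts, such as Gm28438 with 0 to 2 in WT_SD6, have fold changes limited by depth.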

Other observations

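Gabra2 separated the CnB1KO_S6 libraries into levels near those of either genotype. It had 120.1, 143.4 and 130.5 CPM in CnB1KO_S6 libraries 11, 12 and 13, 86.6 and 77.4 CPM in libraries 14 and 15, and 69.5 to 82.4 CPM in WT_S6. In the same libraries Crb1 was uniformly low, at 2.02 to 2.90 CPM in CnB1KO_S6, against 13.4 to 19.9 CPM in WT_S6. For Gm15446 it was library 11 of CnB1KO_S6, at 25.6 CPM, that lay nearest to the 19.5 to 21.6 CPM of CnB1KO_SD6. For Wdfy1 it was library 10 of WT_SD6, at 88.2 CPM, that lay between the genotypes.

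The mitochondrial transfer RNA gene mt-Tr repeated its difference after sleep, with 22.8 to 31.8 FPKM in CnB1KO_S6 against 47.4 to 49.8 FPKM in WT_S6.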
